A study of Mus musculus with 4 samples.

Results

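Binding of FLAG-tagged MIXL1 around 10 genes of the neural ectoderm and the early brain was read from the peak list of a chromatin immunoprecipitation sequencing study in mouse cells. The genes were En1, Pou3f1, Irx3, Ncam1, Sox1, Pax6, Zic2, Six3, Hesx1 and Gbx2, 10 of 21523 protein-coding genes considered. A peak was counted for a gene when any base of it lay within 100 kb of the gene's annotated span in RefSeq (GRCm38.p6, the assembly that mm10 denotes). By this rule the 10 genes held 31 of the 9598 listed peaks, and no peak was counted for more than 1 of them.

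The libraries came from mouse epiblast stem cells, pluripotent cells that resemble the epiblast after implantation, carrying a Mixl1 gene that doxycycline switches on. Both groups, 2 FLAG immunoprecipitations and 2 inputs, came from embryoid bodies formed over 2 days in serum, with 1 µg/mL doxycycline for the final 24 h. The precipitation group used the anti-FLAG M2 antibody and the input group no antibody, and the stock cultures were kept on irradiated fibroblasts with activin A at 20 ng/mL and bFGF at 10 ng/mL. The MIXL1 precipitated is therefore the induced, tagged protein, and cells without doxycycline were not analysed here. The submitters gave 1 list of peak positions for all 4 libraries, without a score or height. No value below has a replicate error, no test between groups is possible, and the sequencing depth behind each peak is unknown. Gene expression was not measured, so the cell type could not be checked against its markers.

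MIXL1 is a paired-type homeodomain factor of the primitive streak, where epiblast cells enter mesoderm and endoderm. Epiblast cells that stay out of the streak form ectoderm, part of which becomes neural plate. In neural tissue, homeobox, SOX, POU, PAX and ZIC factors mark out forebrain, midbrain, hindbrain and spinal cord. Homeodomains bind the letters TAAT (ATTA on the other strand), and paired-type homeodomains can bind as pairs to inverted copies of that core.

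Peaks were near 8 of the 10 genes, and 5 of the 10 had 4 or more peaks each. Hesx1 had 9 peaks, Gbx2 6, En1, Irx3 and Sox1 4 each, Ncam1 2, and Pou3f1 and Six3 1 each. Pax6 and Zic2 had none. Of all protein-coding genes, 52.8% had at least 1 peak within 100 kb, and 7.1% had at least 4. Within 50 kb only En1 and Hesx1 of the 10 had 4 or more. The share of 8 in 10 (80%, 95% Wilson interval 49.0 to 94.3) has an interval that holds the 52.8% of all genes. The interval covers only the number of genes counted. The median count was 3 peaks per gene against 1 for all protein-coding genes, and the means were 3.1 and 1.17. Over the windows searched, 2.37 Mb in all, the genes had 13.1 peaks per Mb, against 4.71 over the same windows around all protein-coding genes. The windows of all genes overlap, so there a peak and its bases were counted once for each gene near them. Without Hesx1 the density was 10.2 per Mb. The 31 peaks had a median width of 498 bp and ranged from 242 to 938 bp, while the whole list had a median of 487 bp.

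**Figure D1:**
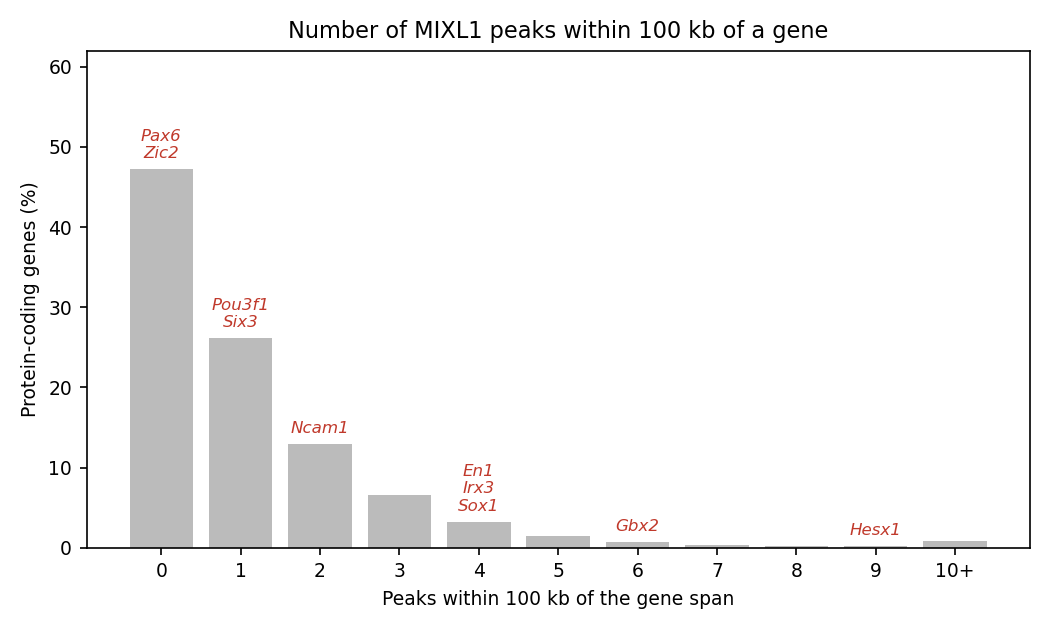
Number of MIXL1 peaks within 100 kb of the gene span (x axis) against the percentage of all 21523 protein-coding genes with that number (grey bars, y axis); the 10 neural genes are written above the bar of their own count. Hesx1 stands at 9 peaks, Gbx2 at 6, and Pax6 and Zic2 at 0.

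Distances to the nearest peak ran from 0 to 952 kb. Peaks overlapped the spans of Hesx1 and Ncam1, and the nearest peak lay 1.76 kb from En1, 2.66 kb from Gbx2 and 11.8 kb from Pou3f1. Further out were Six3 at 19.5 kb, Irx3 at 32.8 kb and Sox1 at 55.3 kb. Zic2 at 156 kb fell outside the limit of 100 kb, as did Pax6 at the far end. The median was 15.6 kb for the 10 genes and 89.3 kb for all protein-coding genes. Limits of at least 95% coverage for the former, from the ordered distances of only 10 genes, were 0 and 156 kb and hold the latter. With only the wider peaks the median of the 10 genes was 55.9 kb. A peak within 5 kb was listed for 4 of the 10 genes (En1, Gbx2, Hesx1 and Ncam1) and for 16.3% of all protein-coding genes. Among single peaks, the last one inside the limit lay 97.0 kb from Gbx2, and the first ones beyond it lay 124 kb from Ncam1 and 128 kb from Six3.

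**Figure D2:**
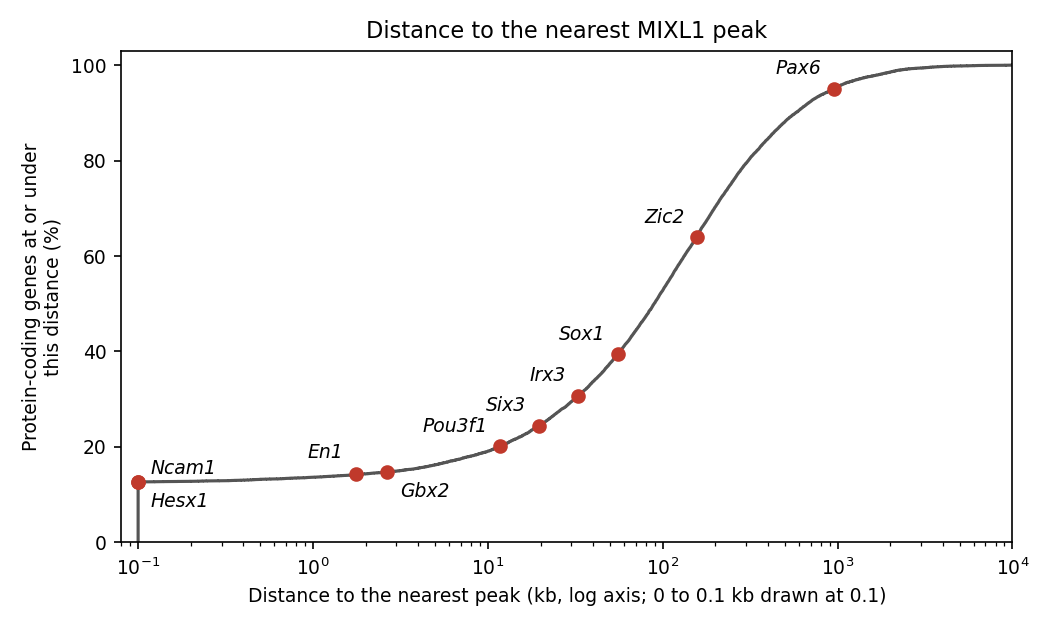
Cumulative percentage of protein-coding genes (y axis) by the distance from gene span to nearest MIXL1 peak (x axis, kb, log scale), with the 10 neural genes as red points on the curve. Hesx1 and Ncam1, overlapped by peaks, are drawn at 0.1 kb; Pax6 lies at 952 kb near the top of the curve.

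Hesx1, Gbx2 and En1 had the peaks closest to an annotated start among the 7 genes with an entry in the RefSeq promoter table, so the 250 bases before their starts are shown, 5′ to 3′ on the gene's strand. The table had no entry for Pou3f1, Ncam1 and Zic2. Capitals mark every TAAT or ATTA. These stretches lie outside the peaks. The nearest peak was 68 bases from the start of Hesx1, 2.05 kb from that of En1 and 2.66 kb from that of Gbx2. The bases under the peaks themselves were not analysed here.
Hesx1, chr14:27000112-27000361, plus strand: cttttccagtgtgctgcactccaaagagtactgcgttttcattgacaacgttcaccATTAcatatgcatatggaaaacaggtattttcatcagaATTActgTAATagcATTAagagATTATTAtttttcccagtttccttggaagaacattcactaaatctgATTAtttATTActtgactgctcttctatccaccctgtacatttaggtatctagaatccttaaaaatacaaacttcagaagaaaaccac
En1, chr1:120602237-120602486, plus strand: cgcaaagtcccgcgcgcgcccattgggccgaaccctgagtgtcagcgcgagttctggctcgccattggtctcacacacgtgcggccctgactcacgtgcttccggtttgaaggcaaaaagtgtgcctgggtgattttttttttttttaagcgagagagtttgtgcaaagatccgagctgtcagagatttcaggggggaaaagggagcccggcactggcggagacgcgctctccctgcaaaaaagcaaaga
Gbx2, chr1:89931177-89931426, minus strand: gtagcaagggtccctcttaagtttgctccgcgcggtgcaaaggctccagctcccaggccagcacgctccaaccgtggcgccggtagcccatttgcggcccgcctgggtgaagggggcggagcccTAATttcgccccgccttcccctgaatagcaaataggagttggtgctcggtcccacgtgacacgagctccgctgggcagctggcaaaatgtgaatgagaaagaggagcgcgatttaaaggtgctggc

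The Hesx1 stretch held 8 copies of TAAT or ATTA, overlapping copies included. It was also AT-rich, with 34% G and C. That of Gbx2 held 1 copy at 61.6% G and C and that of En1 none at 56%. Of the 21045 RefSeq promoters of protein-coding genes, cut to the same 250 bases, 49.3% held at least 1 copy and the median was 55.6% G and C. In Hesx1, one pair formed an inverted repeat, TAAT followed after any 3 bases by ATTA, the spacing known for paired-type homeodomain dimers. The bases were TAATAGCATTA, at chr14:27000213-27000223, from 149 to 139 bases before the start, and 207 bases from the edge of the nearest peak. This repeat, which reads as the same pattern on both strands, occurred in 76 of the 21045 promoters (0.361%). It occurred in none of the other 7 promoters of 6 further genes of the group (En1, Irx3, Sox1, Six3, Gbx2 and both listed for Pax6). For 7 of the 76 promoters with the repeat (9.21%, Hesx1 included), the start lay within 1 kb of a peak, against 2.92% of all 21045. Among 871 promoters with 34% or less G and C, the share was 0.574%, and among 202 with 8 or more copies of TAAT or ATTA, as in Hesx1, it was 1.49% (3 promoters). These 4 shares were computed after the Hesx1 repeat had been seen and were not tested. The groups were not matched in base content, with a median of 38.4% G and C among the 76, 31.2% among the 871 and 30% among the 202. Hesx1 itself is counted in every group, and a gene with several promoters is counted several times. A match of letters describes the sequence and does not show a bound site.

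The forebrain genes spanned the whole range. Hesx1, which encodes a paired-like homeodomain repressor of the anterior neural plate and pituitary (chr14:26994419-27002329), had a peak across the lower end of its span (chr14:26994226-26994535). On the plus strand, where the table places Hesx1, that is the outermost annotated 5′ end. A second peak (chr14:27000430-27000791) began 68 bases beyond the start shown above, inside the gene. The third (chr14:27005913-27006821) lay 3.58 kb past the other end of the gene, and the 3 together filled 12.6 kb. The other 6 peaks, 39.9 to 83.6 kb away, all lay inside Il17rd, the next protein-coding gene, which encodes an inhibitor of FGF signalling. Toward lower positions Hesx1 had no further peak for 306 kb, past its neighbour Appl1. Having 9 or more peaks within 100 kb was seen for 1.01% of protein-coding genes. Counting only peaks for which Hesx1 was the nearest protein-coding gene left 3.

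Six3, which encodes a homeodomain factor of the forebrain and eye field (chr17:85613608-85626191), had 1 peak, at chr17:85645673-85646001. It lay 19.5 kb beyond the gene, between Six3 and its relative Six2, a homeobox gene known from kidney progenitors. The peak was nearer to Six2, at 16.7 kb. Six2 lies 36.5 kb from Six3 and had 2 peaks within 100 kb. The next peaks around Six3 were at 128 kb on the side of Camkmt and at 140 kb beyond Six2.

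Pax6, which encodes a paired-domain and homeodomain factor of eye and forebrain (chr2:105668896-105698410), stood alone in the group. No peak lay within 500 kb of it, whereas 88.1% of protein-coding genes had one. The nearest peaks were 952 kb away at higher and 1409 kb away at lower positions, beyond Immp1l and Rcn1, its coding neighbours, and Elp4, whose span overlaps that of Pax6. A farther nearest peak was found for 4.92% of protein-coding genes. The stretch without peaks around Pax6 (chr2:104260079-106650074) measured 2390.0 kb and held 17 protein-coding genes, Pax6 included. It was the eighth longest of 571 gaps between neighbouring peaks on chromosome 2 and ranked 131 of 9313 on the autosomes, where the median gap was 76.9 kb. Whether reads can be placed across this stretch was not tested.

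The genes of the midbrain and hindbrain were both flanked closely by peaks. En1, which encodes the engrailed homeodomain repressor of the midbrain-hindbrain junction (chr1:120602487-120607991), had 2 peaks before its start, at 2.05 kb (chr1:120599943-120600440) and 3.98 kb (chr1:120598159-120598511). The next lay 1.76 kb past its other end (chr1:120609750-120610270), in the noncoding gene Gm34352. The gene thus sat between peaks 9.31 kb apart. The fourth peak, at 36.0 kb (chr1:120643993-120644563), lay in another noncoding gene, 2610027F03Rik. En1 was the nearest protein-coding gene for all 4. Its coding neighbours are far off, Marco at 97.5 kb and Insig2 at 696 kb.

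Gbx2 (chr1:89927962-89931176) encodes a homeodomain factor that sets the anterior hindbrain against the midbrain. Its 6 peaks were split evenly, 3 on each side. The closest lay 2.66 kb upstream of the start shown above (chr1:89933839-89934189), inside LOC102637806, a gene listed as protein-coding 0.899 kb from Gbx2. The next were 4.80 kb beyond the other end (chr1:89922830-89923166) and 11.4 kb upstream. A pair at 56.5 and 79.1 kb lay inside Agap1, which encodes a GTPase-activating protein for ARF. The last, at 97.0 kb upstream, was nearest to Iqca. Gbx2 was the nearest protein-coding gene for only 1 of its 6 peaks. Among protein-coding genes, 2.41% had 6 or more peaks within 100 kb. Gbx2 and En1 share chromosome 1 but no peak.

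**Figure D3:**
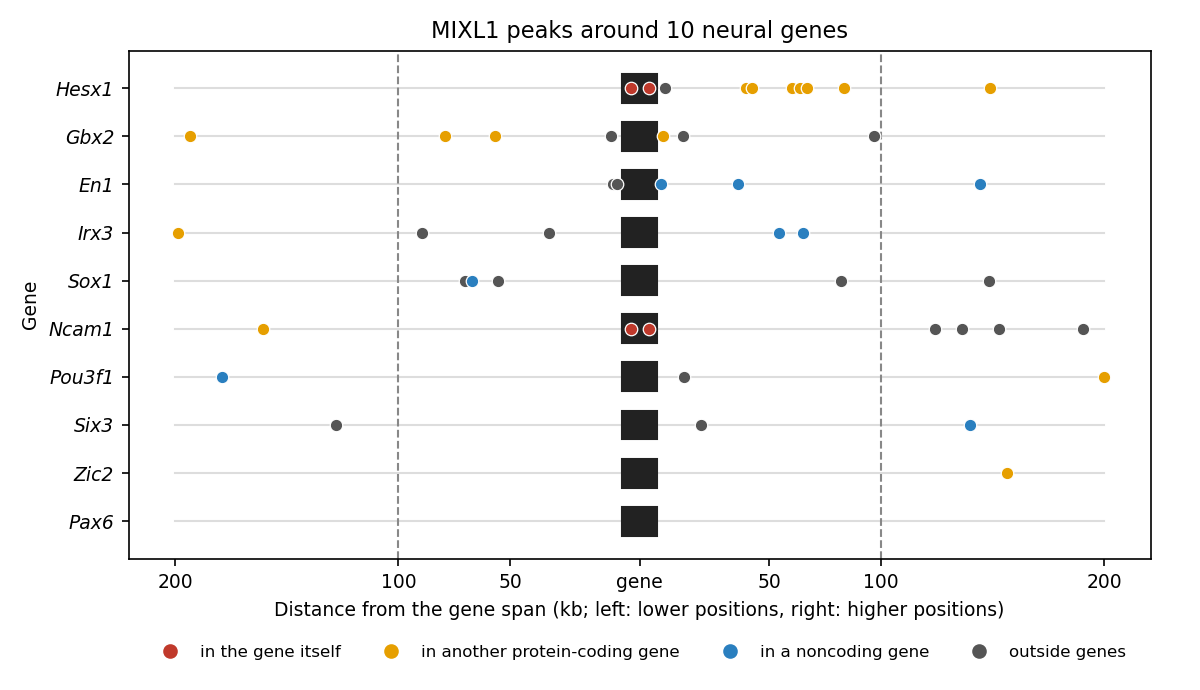
Position of every MIXL1 peak within 200 kb of the 10 neural genes; the x axis is distance from the gene span in kb, the black block stands for the gene (not to scale, peaks inside it are placed at its left and right only to be seen), dashed lines mark 100 kb, and colours give what each peak lies in. Peaks crowd next to Hesx1, En1 and Gbx2, stay more than 30 kb away from Irx3 and Sox1, and are missing from the row of Pax6.

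Irx3, which encodes an Iroquois homeodomain factor of neural plate patterning (chr8:91798511-91801654), had 4 peaks, all more than 30 kb away. On the 3′ side, toward Fto, they lay at 32.8 kb (chr8:91764961-91765730) and 89.4 kb. On the 5′ side, the peaks at 54.3 kb (chr8:91855983-91856403) and 65.1 kb (chr8:91866761-91867407) both fell in Irx3os, a noncoding gene. One more, at 199 kb and outside the limit, lay inside Fto, which encodes an RNA demethylase. Irx3 was the nearest coding gene for 3 of the 4 peaks. No other protein-coding gene lies within 100 kb of it. Its clustered relatives had fewer peaks: Irx5, 556 kb off, had 1 within 100 kb, at 18.2 kb, and Irx6, 873 kb off, had 1 at 31.6 kb.

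The 4 genes of the general neural plate differed among themselves. Sox1, which encodes a SOXB1 factor of the first neural cells (chr8:12395519-12399555), had 4 peaks and none nearer than 55.3 kb. Those at 55.3 kb (chr8:12339592-12340217), 67.1 kb and 70.1 kb lay upstream, and 1 at 82.3 kb (chr8:12481840-12482500) lay downstream. One of them fell in the noncoding gene Gm51562 and the others outside genes. No other protein-coding gene lies within 100 kb. Sox1 was the nearest for 2 of the peaks, A230072I06Rik for the other two.

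Ncam1, which encodes a neural cell adhesion molecule, is the longest gene of the group at 297 kb (chr9:49502129-49799393). Both of its peaks lay inside it. One (chr9:49798870-49799117) lay 276 bases from the end at higher positions, and the other (chr9:49530838-49531409) lay 28.7 kb from the end at lower positions. With its window of 0.497 Mb, Ncam1 had 4.02 peaks per Mb, under the 4.71 of windows around all protein-coding genes. Another 4 peaks followed just outside the limit, 124 to 190 kb past the end at higher positions, where the next coding gene, Plet1, is 695 kb away. All 4 were nearest to Ncam1.

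Pou3f1, which encodes the POU factor OCT6 of epiblast and neural progenitors (chr4:124657646-124660655), had 1 peak at 11.8 kb (chr4:124672459-124672732). Its nearest coding gene was Utp11, not Pou3f1. Zic2, which encodes a zinc-finger factor of the neural plate (chr14:122475384-122480328), had its nearest peak at 156 kb, inside the neighbouring gene Pcca. Its partner Zic5, 9.73 kb away, had its nearest at 171 kb.

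Peaks were also counted by distance. Within 10 kb outside the gene span there were 6 peaks, 30 per Mb, against 4.80 per Mb around all protein-coding genes, and the 6 belonged to 3 genes, En1, Gbx2 and Hesx1 (30% of the 10, against 8.11% of all genes with a peak in this shell). From 10 to 50 kb there were 7 peaks (8.75 against 4.71 per Mb) at 6 genes, 60% against 25.7% of all genes. From 50 to 100 kb there were 14 at 4 genes, Hesx1, Sox1, Gbx2 and Irx3 (14 against 4.87 per Mb). The share of genes there, 40%, was near the 30.7% of all genes, so the higher density came from several peaks at each of these 4. Between 100 and 200 kb 15 peaks gave 7.5 against 4.97 per Mb, at 90% of the 10 genes against 48.5% of all genes. From 200 to 500 kb 48 peaks gave 8 against 4.94 per Mb, at 90% against 78.1%. The higher density was thus not limited to the 100 kb of the rule. A further 4 peaks overlapped gene spans. Within 500 kb, Gbx2 had 15 peaks, Irx3 14, Hesx1 12, Pou3f1 11, En1 and Six3 10 each, Ncam1 and Sox1 9 each, Zic2 4 and Pax6 0, while the median protein-coding gene had 4. Thus Pou3f1 and Six3, with 1 peak each within 100 kb, had as many in the wider region as En1.

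**Figure D4:**
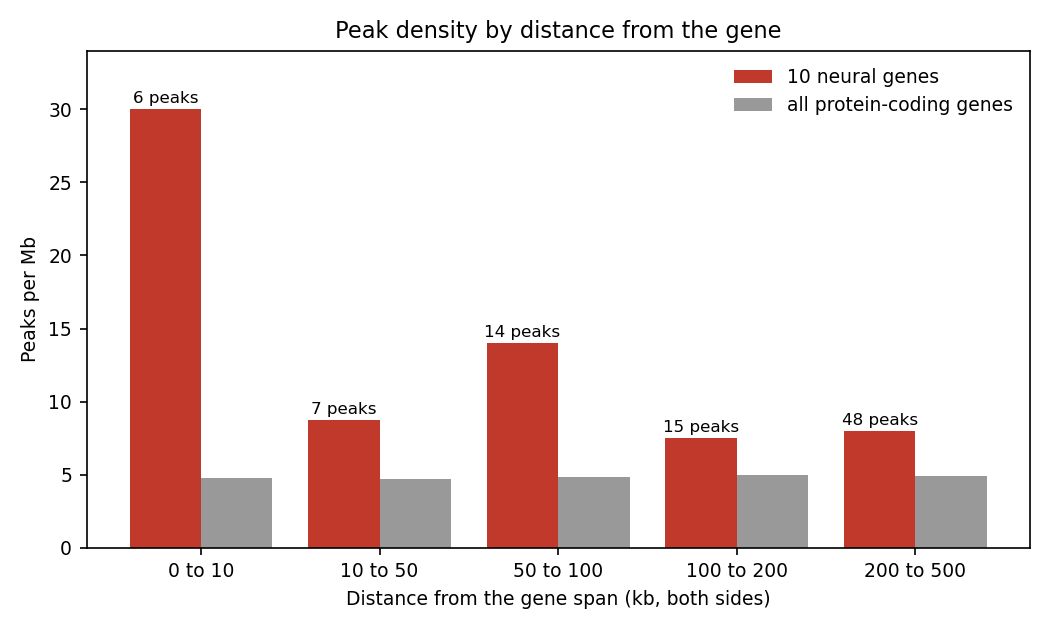
Peaks per Mb (y axis) in shells of distance outside the gene span (x axis, kb, both sides together) for the 10 neural genes (red, with the number of peaks) and for all protein-coding genes (grey). The shell of 0 to 10 kb reaches 30 per Mb from 6 peaks; the grey bars stay between 4.71 and 4.97.

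Of the 31 peaks, 13 lay outside genes, 9 inside another protein-coding gene, 5 inside a noncoding gene only and 4 inside the named gene itself. The named gene was the nearest protein-coding gene for 15 of them, and for 16 another gene was nearer. Grouping peaks less than 10 kb apart gave 22 groups, of which 6 had more than 1 peak and held 15 peaks. The groups of 3 were those across En1, across Hesx1 and inside Il17rd. Matching shares for all listed peaks are not given, so the counts in this paragraph only describe the 31.

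Other genes of neural development were set beside these by lists of 100 genes in all. The lists were chosen with earlier results of these data known, so their intervals describe gene number and are not tests. Peaks within 100 kb were found for 68 of the 100, against 52.8% of all protein-coding genes, with a median distance of 48.7 kb. Only 9 of the 100 had 4 or more peaks, near the 7.1% of all protein-coding genes. The genes named below with many peaks are therefore the top of each list. The share was highest for dorsoventral and neural crest genes, 16 of 18 (88.9%, Wilson interval 67.2 to 96.9). Among them Msx1, a homeobox gene of the dorsal neural tube, had 8 peaks with the nearest at 1.23 kb, Nkx6-2 had 5, and Pax7, overlapped by a peak, Foxa2 and Foxd3 3 each, while Shh, the ventral signal, had its nearest at 358 kb. Forebrain and eye genes gave 14 of 18 (77.8%, interval 54.8 to 91.0), led by Sp8 with 4 peaks, Otx2 with 3 and Fezf2, Emx1 and Six6 with 2 each. In that list 2 neighbouring genes counted the same peak, which the interval treats as separate. Sp8 is among 4 genes of that list on chromosome 12, which held 1541 of the 9403 peaks on assembled chromosomes. None of the 10 genes lies there.

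Midbrain and hindbrain genes gave 12 of 18. Pax2, which acts at the midbrain-hindbrain junction with En1, had 7 peaks, Meis1, Meis2 and Gbx1 3 each, and Lmx1a lay 493 kb from a peak. Proneural and neuronal genes also gave 12 of 18, led by the long genes Syt1 (513 kb) and Rbfox3 (422 kb) with 5 peaks each and followed by Snap25 and Ebf2, overlapped by peaks, with 2 each as at some others, and Hes3 was farthest at 654 kb. Glial genes, which act late in the lineage, gave 6 of 10, with 7 peaks at Mog, 4 at Gfap and 2 each at Mbp, S100b and Olig1, and Fabp7 was farthest at 786 kb. Other neural plate genes gave 8 of 18 (44.4%, interval 24.6 to 66.3), the only one of the 6 lists under the share of all genes. There Msi1 had 4 peaks, Sox4 2 and Zfp521, like several others, 1, and Zic4 lay 1105 kb from a peak. The intervals of 4 of the 6 lists hold 52.8%, so those shares cannot be told from the background at these list sizes. Those of the dorsoventral and forebrain lists lie above it, the forebrain one narrowly (lower limit 54.8%) and with neighbouring genes that share a peak. As the lists were chosen with earlier results known, these intervals do not show a difference from the background either.

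**Figure D5:**
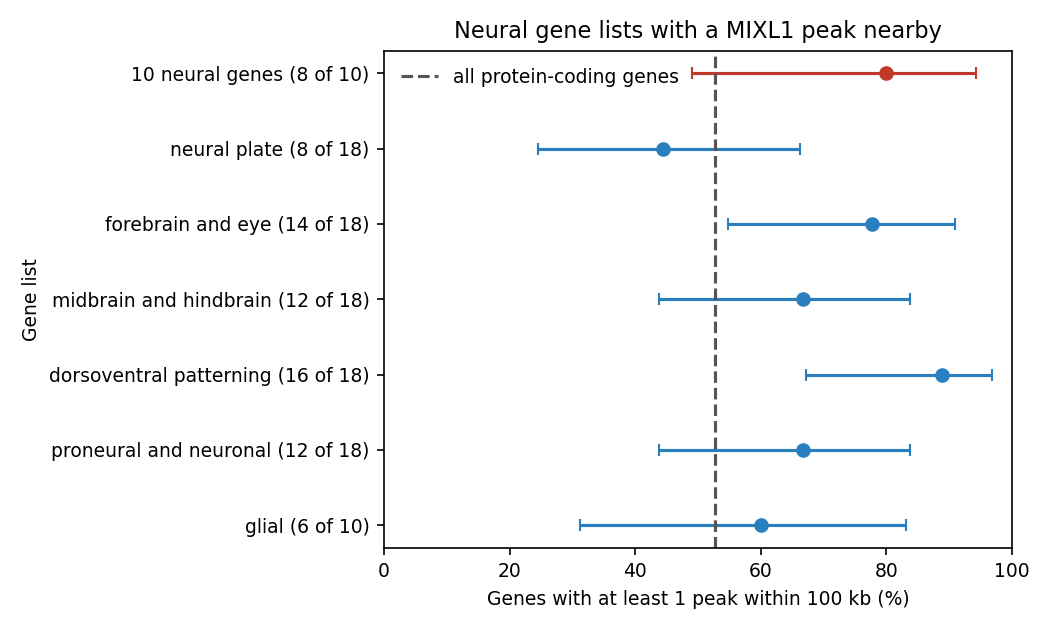
Percentage of genes with at least 1 MIXL1 peak within 100 kb (x axis) for the 10 neural genes (red) and 6 further neural lists (blue), with 95% Wilson intervals that cover gene number only; the dashed line is the 52.8% of all protein-coding genes. The interval of the 10 genes crosses that line, and those of the dorsoventral and forebrain lists lie to its right. Intervals treat genes as independent, although neighbouring genes in the forebrain list share a peak. All lists were chosen with earlier results of these data known, so no interval is a test.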

How the data were processed

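The submitters' processing notes name mm10 as the build, and MACS2, SAMtools, Bowtie2 and CASAVA 1.8.2 as tools. How peaks were thresholded or filtered, and whether inputs or pooled replicates entered, is not given in the sources used here beyond short tags in the list's name, whose meaning is not explained. Only positions stand in the deposited list, for 9598 peaks (starts counted from 0 there and printed here from 1). The 10 genes and the further lists were chosen with earlier results of these data known. Genes came from the RefSeq table of GRCm38.p6, limited to the 20 chromosomes with peaks. Genes listed before 3 Mb (340) were not used, since mm10 chromosomes begin with an assembly gap of that length. The table gives spans without exons or strand; strand and starts came from the RefSeq promoter table. Distance was counted from the nearer peak edge to the gene span and was tested on simulated positions. Named genes were the 10 genes, their coding neighbours and hosts of peaks, close relatives, and from each list the 3 genes with most peaks (ties by the nearer peak; genes tied with the last were added after their values were seen) and the farthest gene; 1 gene that this rule takes is not reported here. Intervals are 95% Wilson intervals. Promoters were cut to 250 bases before the start. The alternatives changed the distance (50 or 200 kb), the reference points, the peaks, the assignment and the background. Software was Python 3.11.15 with pandas 2.3.3, numpy 2.4.6 and scipy 1.17.1, and plots were drawn in matplotlib 3.10.9.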

Additional observations from a re-analysis of the deposited data

How the results depend on the processing

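The number of genes with a peak, 8 of 10, ranged from 6 to 9 over the 6 alternatives run for it. It was 7 within 50 kb, 9 within 200 kb, and 6 both with the wider peaks alone (Pou3f1 and Six3 lost theirs) and when each peak went to its nearest protein-coding gene. The 31 peaks became 17 within 50 kb, 17 with only peaks of at least the median width, and 15 by nearest gene, where Hesx1 kept 3 and Gbx2 1. They were 22 when gaps under 10 kb were joined. The genes with 4 or more peaks also became fewer. Within 50 kb only En1 (4) and Hesx1 (5) kept that many, by nearest gene only En1 (4), and with the wider peaks only Hesx1 (4). Shares of all genes with 4 or more peaks are not given for these settings. The background of 52.8% became 37.5% within 50 kb, 70.3% within 200 kb, 32.1% with the wider peaks, 20.9% by nearest gene, 49.1% for genes of every type and 51.7% for the 11043 genes with at most 4 coding neighbours within 100 kb. The 68 other neural genes became 45 with the wider peaks. The median distance was 55.9 kb with the wider peaks and 15.8 kb from peak centres. No paired analysis was possible because the libraries enter only through 1 shared list, and for the same reason no library was left out. Depth is unknown. A gene without a listed peak may have had one that the submitters' unknown threshold or filters removed.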
